A study of Cicer arietinum with 8 samples.

Results

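The mean leaf cold response of 4 chickpea (Cicer arietinum) genotypes was measured on a spotted cDNA array read in 2 colours. RNA of cold-treated leaves was hybridised on the array against RNA of control leaves. The measurement rested on 12 leaf hybridisations of 22 distinct hybridisations in the series, and the remaining 10 were of flowers. The genotypes were Sonali (Tolerant1), ILC 01276 (Tolerant2), Amethyst (Susceptible1) and DOOEN (Susceptible2), each with 3 hybridisations. All plants carried the label 2 weeks after flowering, which is when the cold treatment began. Cold-treated plants had days at 15 to 25 °C and nights at 5 °C, with 12 h of each, and their leaves were taken after 7 such nights. Control plants of the same genotype stayed at 15 to 25 °C in the glasshouse and were harvested with them. Each RNA was a pool of 5 plants, so differences between single plants were not measured, and the array compares cold with control within a genotype only. The replicates were described as biological.

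A feature is an arrayed cDNA or control sequence, printed as 6 spots, and is named here by its GenBank identifier and the description in the array's feature list. Of 756 features other than controls, 731 were detected in leaves. This means at least 2 times the local background in 1 channel of at least 1 leaf hybridisation. The limit is low and does not show that a feature is expressed in leaves. Every value below is log2 of cold over control unless a level is named, so that 1 is a doubling and -1 a halving. A feature was tested where each of the 4 leaf groups had a value in at least 2 of its 3 hybridisations, which 445 features met. The test was limma's moderated test of the mean of the 4 genotype means against 0, with p-values adjusted by Benjamini-Hochberg over the 445 features, and a feature with an adjusted p below 0.05 is called induced or repressed according to its sign. Errors after ± are standard errors of that mean. The leaf label was checked against chlorophyll a/b binding proteins, the light-harvesting proteins of green tissue: the 9 features of that description were detected in 7 to 12 of the 12 leaf hybridisations and in 7 to 10 of the 10 flower hybridisations, so their presence did not set leaves apart from flowers.

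Some hybridisations stood apart in quality before any result was taken. In replicate 1 of Tolerant1 leaves only 17.7% of spots were unflagged in both channels and 187 features had a value, and in replicate 1 of Susceptible1 leaves the figures were 30.6% and 278 features. The other 10 leaf hybridisations kept 56.7% to 65.7% of spots. The call count was 40 without these 2 hybridisations, and 38 of the 40 were among the calls of the full set.

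Plants kept at low, non-freezing temperature change membrane composition, accumulate protective solutes and antioxidants, and adjust photosynthesis because light is still absorbed while carbon fixation slows. Transcription factors of the AP2/ERF family, which includes the CBF/DREB factors, are known to govern part of the cold-regulated genes in Arabidopsis. Chickpea is sensitive to chilling around flowering, and small cysteine-rich peptides, first known from pathogen defence, respond to abiotic stress in many plants.

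Averaged over the 4 genotypes, cold changed a limited set of leaf transcripts. A call rests on that mean and does not require a change in each genotype. In a whole leaf, a change in the share of a cell type and a change in RNA per cell cannot be told apart. Of the 445 features tested, 43 were called (9.66%), of which 28 were induced (6.29%) and 15 repressed (3.37%). In the same limma test 91 had an unadjusted p below 0.05. This fit takes the hybridisations as independent. With the replicate number as a random block 27 of the 43 were called, 21 induced and 6 repressed. Ferredoxin, xylosidase, beta-galactosidase DY475141, DY475176 and DY475070 were among the repressed calls lost. Every lost call is named in the closing section. Among the 43, 7 changed at least 2-fold (1.57% of all tested), 5 of them upward and 2 downward. The induced features were led by a gamma-thionin type defensin (CV793588) and a SNAKIN2 antimicrobial peptide precursor (CV793608), and the repressed features included a pair of chlorophyll a/b binding proteins, a ferredoxin, an aquaporin and enzymes that release sugars from cell wall polymers. The descriptions were Unknown for 20 called features and Unclear for 4, and 19 had a description, 11 of them induced and 8 repressed. Of the called features 41 were chickpea sequences (10.2% of 401 tested) and 2 were grasspea sequences (4.55% of 44 tested). Grasspea is a relative whose cross-hybridising cDNAs are also on the array.

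**Figure D1:**
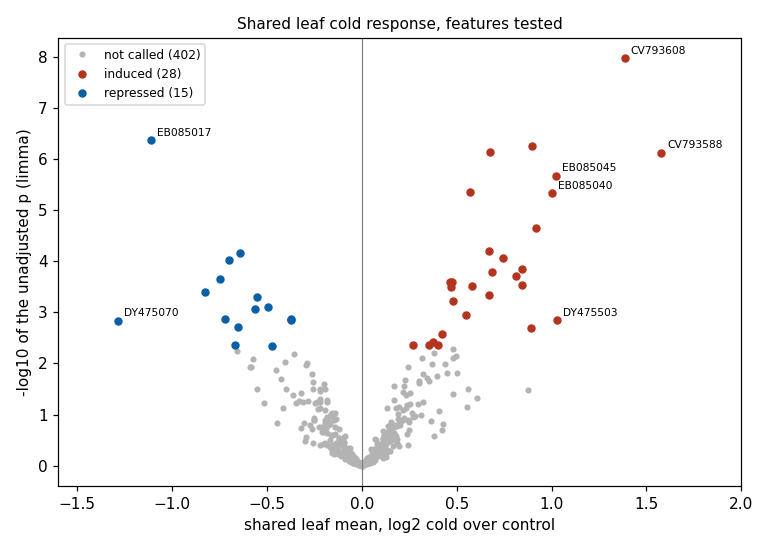
Mean log2 cold over control of the 4 leaf genotypes (horizontal axis) against −log10 of the unadjusted p from limma (vertical axis), 1 point per feature tested, with induced and repressed features coloured. The 28 induced and 15 repressed features lie at the sides, and 7 of them reach a log2 change of 1 in either direction.

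How far the 4 genotypes moved the same way was read from the separate genotype means. For 39 of the 43 called features the 4 genotype means had 1 sign, against 31.7% of all features tested, and for 21 every single hybridisation value had that sign, against 5.17% of all tested. Since the mean that chose the features used the same values, these shares describe the set and test nothing. Each genotype tested alone gave fewer calls. Of the 43 features, 34 were called in no genotype's own test, 5 in 1 genotype, 3 in 2 genotypes, and CV793608 in all 4. Those tests called 1.47% of features for Tolerant1, 0.996% for Susceptible1, 0.586% for Tolerant2 and 0.389% for Susceptible2.

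**Figure D2:**
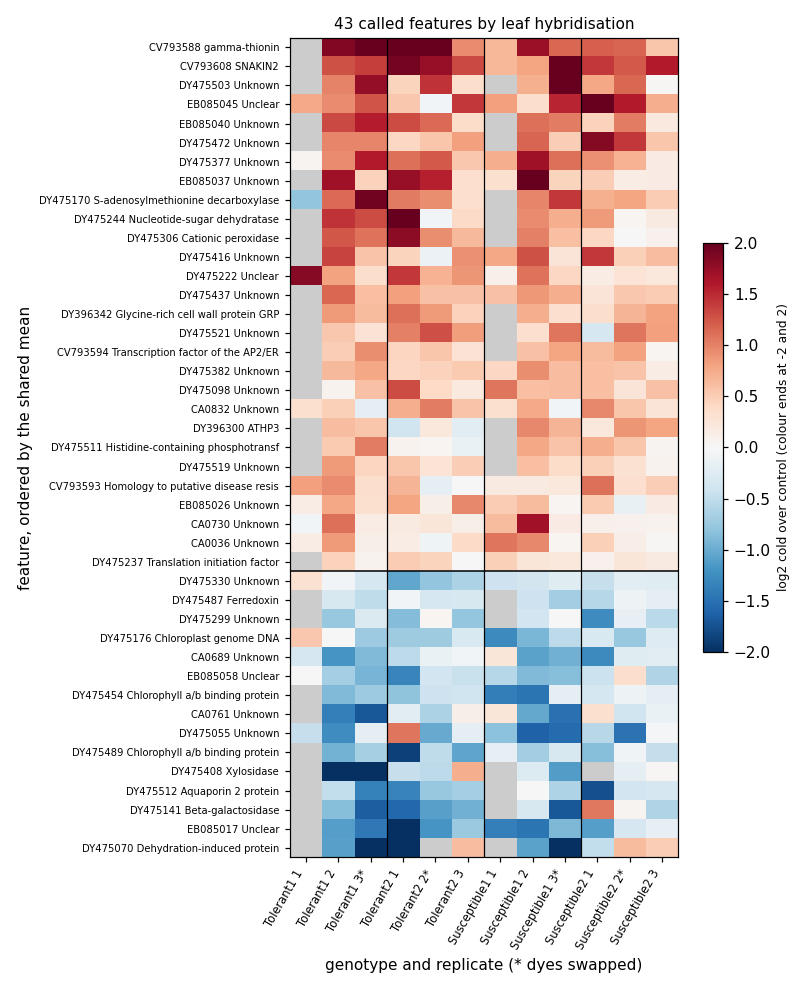
Log2 cold over control of the 43 called features (rows) in each of the 12 leaf hybridisations (columns, by genotype and replicate), red above 0, blue below 0 and grey where no unflagged spot remained. Grey cells gather in replicate 1 of Tolerant1 and of Susceptible1, and the rows keep their colour across most columns, with paler cells in Susceptible2.

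The strongest induction was that of CV793588, a defensin of the gamma-thionin type, a small secreted peptide held by disulphide bonds that is known from plant defence. Its values were 1.86 and 1.99 in Tolerant1, 3.43, 2.32 and 0.94 in Tolerant2, 0.66, 1.73 and 1.15 in Susceptible1 and 1.20, 1.16 and 0.56 in Susceptible2. All 11 measured hybridisations were above 0, and the tolerant genotypes held the 4 highest values, although the genotypes overlapped. The shared mean was 1.58 ± 0.19 (n = 11), a 2.98-fold induction with a limma adjusted p of 6.68e-05.

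CV793608, a precursor of SNAKIN2, an antimicrobial peptide of the GASA family first described in potato, had the smallest p of all features tested. It reached 1.27 and 1.39 in Tolerant1, 1.91, 1.74 and 1.32 in Tolerant2, 0.66, 0.79 and 2.00 in Susceptible1 and 1.42, 1.22 and 1.58 in Susceptible2. The lowest and the highest value both came from Susceptible1, and the other genotypes lay between them. Its shared mean was 1.39 ± 0.13 (n = 11), 2.61-fold, with an adjusted p of 4.61e-06.

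A second SNAKIN2 feature, CV793606, had too few values to be tested, since 7 hybridisations gave one, and its mean was 0.59 with a range of -1.32 to 1.57. Of the 14 features on the list of small cysteine-rich peptides, 7 were tested and 2 were induced (28.6%, against 9.66% of all features tested). The other 5 were disease resistance response protein 39 precursors and subtilisin inhibitors, with means between -0.14 and -0.02. The list was set by description only, with no sequence examined for cysteines, and another subtilisin inhibitor feature, DY396260, was not on it. The median of the tested list was -0.03, against 0.00 over all features tested, so the induction belonged to the defensin and the SNAKIN2 feature and not to the list as a whole.

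Among pathogenesis-related and defence proteins 1 of 6 tested features was induced (16.7%, against 9.66% of all tested). Here and below, a fit without 1 hybridisation required only 1 value in each leaf group, a filter chosen after seeing the data, since the filter of 2 values left many features untested. CV793593, similar to a putative disease resistance protein of Arabidopsis thaliana, had values of -0.20 to 1.10 with a median of 0.34 over 12 hybridisations, 10 of them above 0. Its genotype means were 0.70, 0.16, 0.19 and 0.64 in Tolerant1, Tolerant2, Susceptible1 and Susceptible2, and the values of Tolerant1 and Susceptible2 all lay above those of Susceptible1. The shared mean of 0.42 ± 0.12 carried an adjusted p of 0.0312, which was 0.101 without replicate 1 of Tolerant2, and the call was also lost without replicate 1 or 2 of Tolerant1, any of the 3 replicates of Susceptible1, or replicate 1 of Susceptible2. The class 10 pathogenesis related protein CV793610 had the same mean, 0.42, with an adjusted p of 0.528.

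Regulatory proteins that were called all moved upward. CV793594 is described as a transcription factor with an AP2/EREBP DNA-binding domain, the domain of the ERF and DREB families. It gave 0.50 and 0.93 in Tolerant1, 0.43, 0.56 and 0.29 in Tolerant2, 0.58 and 0.79 in Susceptible1 and 0.64, 0.81 and 0.04 in Susceptible2. No value was below 0 and the genotypes overlapped. The mean was 0.58 ± 0.13 (n = 10), 1.50-fold, with an adjusted p of 0.00628. It was the only called feature among 10 tested transcription and RNA-binding factors (10%, against 9.66% of all features tested), whose median was 0.02.

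Histidine-containing phosphotransfer proteins pass a phosphate from hybrid histidine kinases to response regulators, as in cytokinin signalling and osmosensing in Arabidopsis. Both arrayed features of that kind were induced, and they came from different species. DY396300 from grasspea, described as ATHP3, had 0.62 and 0.56 in Tolerant1, -0.40, 0.20 and -0.21 in Tolerant2, 0.96 and 0.67 in Susceptible1 and 0.21, 0.89 and 0.80 in Susceptible2, with a mean of 0.48 ± 0.10 and an adjusted p of 0.00585. The chickpea feature DY475511 had 0.52 and 1.02 in Tolerant1, 0.06, 0.04 and -0.13 in Tolerant2, 0.78 and 0.57 in Susceptible1 and 0.73, 0.56 and 0.06 in Susceptible2, with a mean of 0.47 ± 0.10 and an adjusted p of 0.00628. In both, Tolerant2 lay around 0 while the other genotypes were above it, so these calls rested on 3 genotypes. The limma F test between genotypes gave them unadjusted p-values of 0.0134 and 0.0519, neither of which passed adjustment over the 445 features.

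The other tested kinases and GTP-binding proteins ranged from -0.22 to 0.40 and none was called. Of 32 tested ribosomal proteins and translation factors 1 was called (3.1%, against 9.66% of all features tested), a translation initiation factor (DY475237). Its change was small and even, with a lowest value of 0.01, a median of 0.25 and a highest value of 0.50, and all 11 were above 0. The mean was 0.27 ± 0.08 (adjusted p = 0.0468), which was 0.204 without replicate 2 of Tolerant1, and of the 12 fits with 1 hybridisation left out the call held only without replicate 1 of Tolerant1 and without replicate 3 of Tolerant2. The other feature of that description, DY475442, stood at -0.31 ± 0.15 with an adjusted p of 0.259.

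Induced enzymes covered polyamines, nucleotide sugars and peroxide. S-adenosylmethionine decarboxylase (DY475170) supplies the aminopropyl groups for spermidine and spermine. In leaves it gave -0.79, 1.13 and 1.93 in Tolerant1, 1.03, 0.94 and 0.33 in Tolerant2, 0.97 and 1.41 in Susceptible1 and 0.71, 0.80 and 0.50 in Susceptible2. The single negative value came from replicate 1 of Tolerant1, the hybridisation with the fewest usable spots, and the remaining 10 were positive in every genotype. The mean was 0.84 ± 0.18, 1.80-fold, with an adjusted p of 0.00628.

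The nucleotide-sugar dehydratase DY475244, of an enzyme family that makes sugar donors for cell wall polymers, had a lowest value of -0.06, a median of 0.79 and a highest of 2.06. Tolerant2 held both extremes, with 2.06, -0.06 and 0.39. Tolerant1 had 1.44 and 1.31, Susceptible1 had 0.94 and 0.73 and Susceptible2 had 0.86, 0.04 and 0.18, so that Tolerant2 overlapped all the others. Its mean was 0.84 ± 0.17 (n = 10, adjusted p = 0.00443).

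A cationic peroxidase (DY475306), which oxidises phenolic substrates with hydrogen peroxide, had 1.24 and 1.09 in Tolerant1, 1.79, 0.92 and 0.64 in Tolerant2, 1.01 and 0.60 in Susceptible1 and 0.41, 0.01 and 0.08 in Susceptible2. All 10 values were positive, but those of Susceptible2 lay below every value of the other genotypes, and 2 of them were close to 0. The mean was 0.81 ± 0.17, 1.76-fold, with an adjusted p of 0.00543. It was the only called feature among 7 tested redox enzymes (14.3%, against 9.66% of all features tested). Of the others, thioredoxin (DY475069) at 0.48 had an adjusted p of 0.0708. Superoxide dismutase (DY475155) lay at -0.11, and catalase (DY396413) lay at -0.42 with an adjusted p of 0.299.

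GRP 1.8 (DY396342), a glycine-rich structural protein of the cell wall known from bean vascular tissue, was the second induced grasspea feature. Its values were 0.86 and 0.63 in Tolerant1, 1.10, 0.85 and 0.45 in Tolerant2, 0.73 and 0.33 in Susceptible1 and 0.36, 0.68 and 0.80 in Susceptible2. The 4 genotypes overlapped fully, and their means spanned only 0.27. The shared mean was 0.67 ± 0.12 (n = 10, adjusted p = 0.00272).

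**Figure D3:**
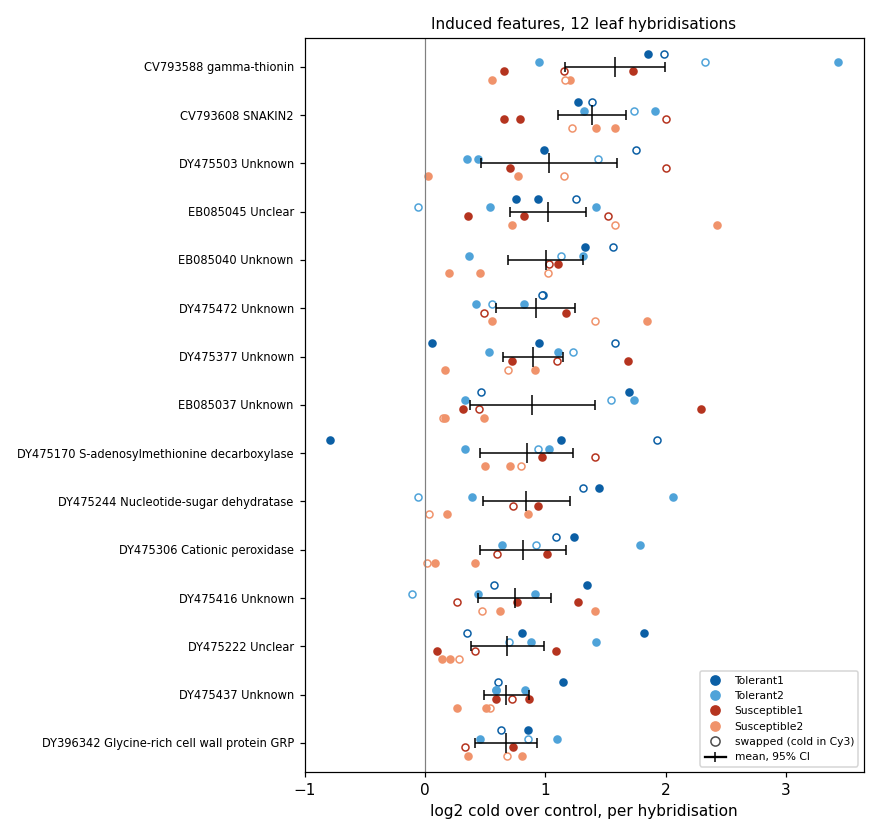
Log2 cold over control of the induced features chosen for naming (1 row each), with 1 point per leaf hybridisation coloured by genotype and a bar for the shared mean with its 95% confidence interval. Points lie to the right of 0 with few exceptions, and the defensin CV793588 has the widest spread, from 0.56 to 3.43.

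Few photosynthesis features were called, and each of them was repressed. Of the 9 chlorophyll a/b binding protein features 7 were tested, 2 were repressed and none was induced (28.6% called, against 9.66% of all tested). DY475489 had -0.94 and -0.67 in Tolerant1, -1.87, -0.50 and -1.05 in Tolerant2, -0.17, -0.69 and -0.32 in Susceptible1 and -0.86, -0.06 and -0.48 in Susceptible2. Its mean was -0.70 ± 0.14 (n = 11), 1.63-fold lower in the cold, with an adjusted p of 0.00326. DY475454 had -0.89 and -0.73 in Tolerant1, -0.80, -0.41 and -0.41 in Tolerant2, -1.38, -1.45 and -0.19 in Susceptible1 and -0.35, -0.10 and -0.19 in Susceptible2, with a mean of -0.64 ± 0.12 (n = 11, adjusted p = 0.00272).

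Both were below 0 on every hybridisation that measured them, and the genotypes overlapped. The other 5 tested features of this description lay between -0.20 and 0.01. The nearest to a call was DY475202 at -0.20 ± 0.08, negative in 11 of 12 hybridisations, with an adjusted p of 0.15. For DY475430 the 95% confidence interval was -0.16 to 0.14. The median of the list was -0.10, and -0.28 with each array's log ratios centred on the median in place of loess, so the level of the uncalled features depended on the scaling. Transcripts of this gene family share sequence, and cross-hybridisation between its members was not measured.

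Ferredoxin (DY475487), the iron-sulphur protein that takes electrons from photosystem I, was repressed by a small and even amount. Its values were -0.31 and -0.51 in Tolerant1, -0.06, -0.34 and -0.32 in Tolerant2, -0.41 and -0.69 in Susceptible1 and -0.58, -0.10 and -0.20 in Susceptible2. All 10 were negative and the genotypes overlapped. The mean was -0.37 ± 0.09 with an adjusted p of 0.0191, which was 0.0773 without replicate 3 of Tolerant1, and the call was also lost without replicate 3 of Susceptible1 or replicate 1 of Susceptible2. It was the only called feature among 21 tested features of photosystems and chloroplast electron transport (4.76%, against 9.66% of all features tested). Of these 21, 13 had a mean above 0. The median of these 21 was 0.02 with loess and -0.13 with median centring.

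DY475176, described only as chloroplast genome DNA, had a mean of -0.50 ± 0.12 (n = 12, adjusted p = 0.0129). Replicate 1 of Tolerant1 stood out at 0.54, while the 3 values of Susceptible1 were -1.27, -0.92 and -0.52, and 10 of 12 values were negative.

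Aquaporins are water channels of the plasma membrane and the vacuole. Aquaporin 2 (DY475512) gave -0.49 and -1.36 in Tolerant1, -1.34, -0.76 and -0.69 in Tolerant2, -0.62 in Susceptible1 beside a value that rounded to 0, and -1.75, -0.38 and -0.34 in Susceptible2. No value was positive and the genotypes overlapped. The mean was -0.75 ± 0.16 (n = 10), 1.68-fold lower in the cold, with an adjusted p of 0.00583. It was the 1 called feature of 11 tested membrane transport features (9.09%, against 9.66% of all features tested). The highest mean on that list was 0.27, that of DY396419, described as a putative tonoplast intrinsic protein (limma adjusted p = 0.387). The other features described as aquaporins were not called. DY475124 was at 0.04 (95% confidence interval -0.19 to 0.26) and DY475174 at -0.25 (-0.58 to 0.08). The grasspea feature DY396334 was at -0.01 (-0.29 to 0.28).

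Among enzymes that cleave sugars from cell wall polymers or glycosides, a xylosidase and a beta-galactosidase were repressed. Xylosidase (DY475408) was lowest in Tolerant1, at -2.02 and -2.05, while Tolerant2 had -0.47, -0.53 and 0.72, Susceptible1 had -0.27 and -1.11 and Susceptible2 had -0.18 and 0.03. The Tolerant1 values lay below all the others. Its mean of -0.72 ± 0.18 (n = 9) had an adjusted p of 0.0191, and its unadjusted p between genotypes was 0.00611. Without replicate 3 of Susceptible1 the adjusted p was 0.0831, and the call was also lost without replicate 2 or 3 of Tolerant1 or replicate 2 of Susceptible2.

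Beta-galactosidase (DY475141) removes terminal galactose from cell wall polymers. It had -0.85 and -1.65 in Tolerant1, -1.57, -1.09 and -0.96 in Tolerant2, -0.33 and -1.70 in Susceptible1 and 1.06, 0.05 and -0.60 in Susceptible2. Tolerant1, Tolerant2 and Susceptible1 lay wholly below 0 and Susceptible2 straddled it, with an unadjusted p between genotypes of 0.027. The mean was -0.82 ± 0.18 (n = 10) with an adjusted p of 0.00774, and 0.0514 without replicate 3 of Tolerant1. The other beta-galactosidase feature, EB085056, had the same order of genotype means, -0.99, -1.12 and -0.61 in Tolerant1, Tolerant2 and Susceptible1 and 0.36 in Susceptible2, and its shared mean of -0.59 ± 0.20 had an adjusted p of 0.09. Of 7 tested glycosidases and cell wall proteins, 1 was induced and 2 were repressed (42.9% called, against 9.66% of all tested). Alpha galactosidase (DY475286) was at -0.06 with an adjusted p of 0.925, and beta glucosidase (DY475415), which had too few values for the test, was at -0.06.

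The lowest shared mean of all features tested was that of the dehydration-induced protein DY475070, at -1.29 ± 0.33 (n = 9, adjusted p = 0.0193). Its values were -1.09 and -3.25 in Tolerant1, -2.71 and 0.61 in Tolerant2, -1.07 and -3.22 in Susceptible1 and -0.49, 0.63 and 0.49 in Susceptible2. The fall was steep in Tolerant1 and Susceptible1, divided in Tolerant2 and absent from the mean of Susceptible2, 0.21, and the unadjusted p between genotypes was 0.0486. Its adjusted p was 0.114 without replicate 1 of Tolerant2, and the call was also lost without replicate 3 of Tolerant1, replicate 3 of Susceptible1 or replicate 1 of Susceptible2. A second feature of that description, DY475192, had too few values for the test and a mean of -0.53 over 7 hybridisations, 5 of them negative.

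**Figure D4:**
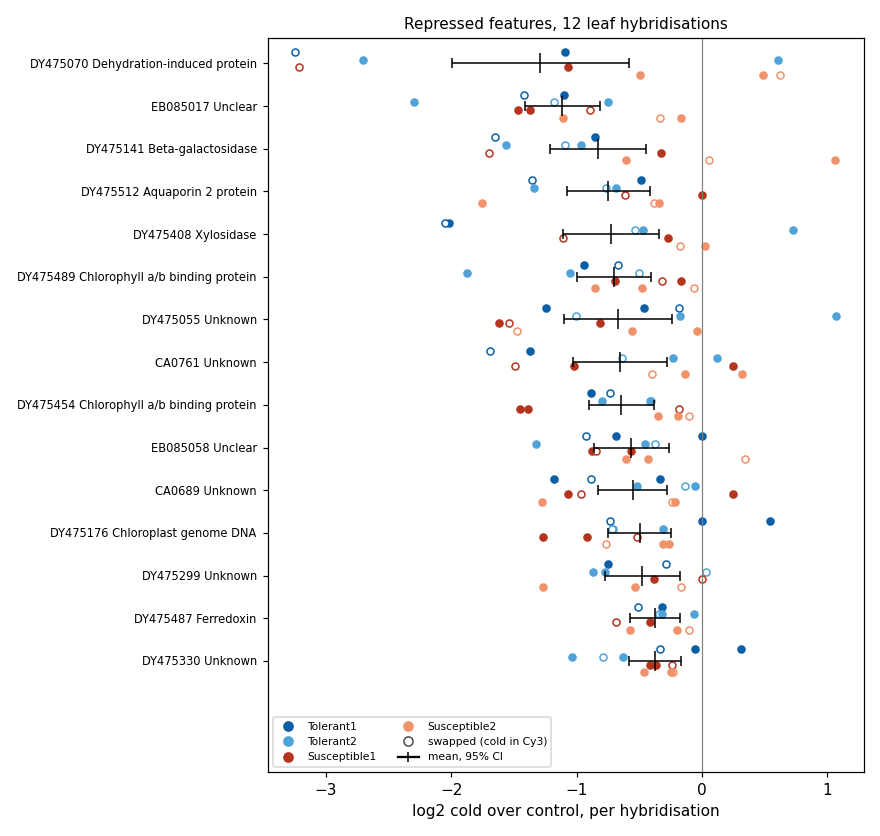
Log2 cold over control of the repressed features (1 row each), with 1 point per leaf hybridisation coloured by genotype and a bar for the shared mean with its 95% confidence interval. EB085017, both chlorophyll a/b binding proteins and ferredoxin have every point below 0, whereas DY475070 and DY475141 have points of Susceptible2 on both sides of 0.

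Features with no assigned function made up 24 of the 43 called, 17 induced and 7 repressed. Their share was near the background, with 11.2% of 179 tested Unknown features and 10.3% of 39 tested Unclear features called, against 9.66% of all tested. They held 3 of the 5 features induced at least 2-fold. DY475503 had a mean of 1.03 ± 0.27, with values of 0.02 to 2.00 over 10 hybridisations. Its adjusted p of 0.0191 was 0.0966 without replicate 3 of Susceptible1, and the call was also lost without replicate 3 of Tolerant1.

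EB085045 was highest in Susceptible2, with 2.42, 1.58 and 0.72, against 0.76, 0.94 and 1.25 in Tolerant1, 0.54, -0.06 and 1.42 in Tolerant2 and 0.82, 0.36 and 1.52 in Susceptible1. It was above 0 in 11 of 12 hybridisations, with a mean of 1.02 ± 0.15 and an adjusted p of 0.000153. EB085040 ran the other way among genotypes. It had 1.33 and 1.56 in Tolerant1, 1.31, 1.13 and 0.36 in Tolerant2, 1.11 and 1.03 in Susceptible1 and 0.45, 1.02 and 0.20 in Susceptible2, with a mean induction of 2.00-fold (95% confidence interval 0.69 to 1.32 on the log2 scale) and an adjusted p of 0.000255. In neither did the F test between genotypes reach an unadjusted p below 0.05, the values being 0.187 and 0.242.

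DY475377 was positive in all 12 hybridisations, from 0.06 in replicate 1 of Tolerant1 to 1.69 in replicate 2 of Susceptible1, with a mean of 0.89 ± 0.12 and an adjusted p of 6.68e-05. DY475437 was the most even of the strongly supported features, at 1.14 and 0.60 in Tolerant1, 0.83, 0.59 and 0.59 in Tolerant2, 0.59, 0.87 and 0.72 in Susceptible1 and 0.26, 0.54 and 0.51 in Susceptible2. All 11 were positive, the genotypes overlapped, and the mean was 0.68 ± 0.09 (adjusted p = 6.68e-05). DY475472 had 10 positive values of 10, between 0.42 and 1.84, and a mean of 0.92 ± 0.16.

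EB085037 had the skewed pattern of a lowest value of 0.15, a median of 0.46 and a highest of 2.29. Susceptible2 averaged 0.27 while the other genotype means were 1.02 to 1.20. The shared mean was 0.89 ± 0.24 with an adjusted p of 0.0245, and 0.143 without replicate 2 of Tolerant1, and the call was also lost without replicate 1 or 2 of Tolerant2, replicate 2 of Susceptible1 or replicate 1 of Susceptible2. DY475416 and DY475222 had means of 0.74 ± 0.15 and 0.68 ± 0.14 and were above 0 in 10 of 11 and 12 of 12 hybridisations.

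The most strongly repressed feature with 1 sign throughout was EB085017, of unclear function. It had -1.10 and -1.42 in Tolerant1, -2.30, -1.18 and -0.75 in Tolerant2, -1.37, -1.47 and -0.89 in Susceptible1 and -1.11, -0.33 and -0.17 in Susceptible2. All 11 were negative, and the 2 highest were both from Susceptible2. The mean was -1.11 ± 0.14, 2.16-fold lower in the cold, with an adjusted p of 6.68e-05. The other repressed features of this kind had means of -0.67 (DY475055), -0.65 (CA0761), -0.56 (EB085058), -0.55 (CA0689), -0.47 (DY475299) and -0.37 (DY475330).

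Of these 6, EB085058 and CA0689 kept an adjusted p below 0.05 without any single hybridisation, with 1 value in each leaf group required. DY475055 lost its call in 9 of 12 omissions, with an adjusted p of up to 0.131 without replicate 2 of Susceptible2. CA0761 lost it in 6, reaching 0.102 without replicate 3 of Tolerant1. DY475299 lost it in 9, reaching 0.165 without replicate 2 of Tolerant1, and DY475330 lost it in 3, reaching 0.0597 without replicate 3 of Tolerant1.

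The 8 remaining induced features of unknown function had means from 0.35 to 0.67. DY475521, DY475382, CA0832 and DY475519 kept their calls in each omission under that filter. DY475098, at 0.55, reached an adjusted p of 0.0928 without replicate 3 of Tolerant1. EB085026, CA0730 and CA0036, at 0.40, 0.37 and 0.35, had adjusted p-values of 0.0468, 0.0446 and 0.0468 with all hybridisations, and these were 0.127, 0.127 and 0.133 without replicate 2 of Tolerant1. Their calls were lost in 8, 10 and 10 of the 12 omissions.

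Several functional groups had members on the array and none called (0%, against 9.66% of all features tested, with no test of the difference). These were mitochondrial respiration and ATP synthases (6 tested, median 0.04), carbon metabolism (12 tested, median 0.08), ribosomal RNA (11 tested, median -0.08), ubiquitin, proteases and chaperones (23 tested, median -0.05) and auxin, phosphate and ripening related proteins (6 tested, median -0.28). In the last of these the auxin-repressed protein DY475078 stood at 0.61 with an adjusted p of 0.233. A p above the threshold does not show that a transcript was unchanged. Metallothioneins, small metal-binding proteins, filled most of the tested list of dehydration, wound and cold stress proteins, and their means ran from -0.16 to 0.31.

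The dehydrin cold-induced protein DY475092, of a family of hydrophilic proteins that protect cells in dehydration and cold, had too few values for the test. It had single values of -0.53 in Tolerant1 and -0.50 in Susceptible1, against 1.05, 1.04 and 0.93 in Tolerant2 and 0.58, 0.35 and 0.25 in Susceptible2. The genotypes did not overlap, and the signs divided along the same pairs of genotypes that shared an image quantification period, so genotype pair and period cannot be told apart. Actin (DY475300) had a mean of 0.25 ± 0.16, with a lowest value of -0.14, a median of 0.13 and a highest of 1.79, and an adjusted p of 0.429.

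Between genotypes the 43 features differed in size more than in direction. The same genotype means chose the features, so their agreement in direction is a description only. Of all features tested, 31.7% had 1 sign in all 4 genotype means. The median over the 28 induced features was 0.76 in Tolerant1 and in Susceptible1, 0.65 for Tolerant2 and 0.51 for Susceptible2. Over the 15 repressed features Tolerant1 had a median of -0.80, Susceptible1 of -0.75, Tolerant2 of -0.58 and Susceptible2 of -0.31. The pair with the larger medians, Tolerant1 and Susceptible1, also differed in image quantification period, so genotype pair and period cannot be told apart. Susceptible2 had the genotype mean nearest 0 for 22 of the 43 called features and for 185 of all 445 tested. All 28 induced features had a positive mean in Tolerant1, Susceptible1 and Susceptible2 and 26 did in Tolerant2, while 13 of 15 repressed features had a negative mean in Susceptible2 and all 15 in the other genotypes.

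The F test of differences between the 4 genotypes called 0 of 445 features (0%), with 13 at an unadjusted p below 0.05, 4 of them among the 43, and a smallest adjusted p of 0.297. The median span between the highest and lowest genotype mean was 0.67 among the called features and 0.46 among all tested. Across the 445 features the genotype means correlated at r = 0.73 between Tolerant1 and Susceptible1, 0.42 between Tolerant2 and Susceptible2 and 0.21 to 0.40 between the other pairs of genotypes, given as a description of points that share an array and its normalisation.

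The period in which the images were quantified, as the file headers give it, followed those pairs. Replicate 1 of Tolerant1 and of Susceptible1 fell in period 1, their other replicates in period 2, and all of Tolerant2 and Susceptible2 in period 3. Within periods the means of the 43 features had the sign of the shared mean for 24 of 26 with a value in period 1, for 43 of 43 in period 2 and for 43 of 43 in period 3. Over all features tested the shares were 67.4%, 80.2% and 76.0%, and since each period's values entered the mean that chose the 43, these counts are a description only. Tested within a period, 20 features were called in period 2, of which 16 were among the 43, and 6 in period 3, of which 2 were among them. With the period as a random block 8 of the 43 were called, namely CV793588, CV793608, EB085045, EB085040, DY475377, DY475437, DY475382 and EB085017.

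Dye could be examined because cold was labelled with Cy5 on 8 leaf hybridisations and with Cy3 on 4, 1 per genotype. The mean over the 4 swapped hybridisations had the sign of the shared mean for 43 of 43 features, and for 32 of them each swapped value did. The swapped values entered that mean, and 71.2% of all features tested had the same sign in both, so this too is a description only. A term for dye was itself called in 44 of 445 features (9.89%), including 1 of the 43, DY475416, and 40 of the 43 stayed called with the term in the fit. Cold in Cy5 alone called 1 feature, CV793608.

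Flower means of the leaf features were mostly nearer 0. Median means were 0.67 in leaves and 0.16 in flowers for the induced features and -0.65 in leaves and -0.18 in flowers for the repressed ones, with the leaf values chosen for their size. The flower mean had the leaf sign for 36 of the 42 features tested in both tissues. The difference between leaf and flower means passed the limma test for 7 of 406 features (1.72%), and these 7 were all members of the leaf set. The leaf mean is part of both tests, so this overlap is a description only. With the replicate number as a random block 0 of the 7 passed.

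CA0832 and DY475382, both of unknown function, had flower means on the other side of 0 from the leaf mean, but neither flower mean was called. Flower values of CA0832 ran from -1.54 in Tolerant1 to 0.20 in Susceptible2. Those of DY475382 ran from -0.57 in Tolerant1 to 0.22 in Susceptible1, so both features had flower values of both signs. CA0832 had 0.48 in leaves against -0.22 in flowers, a difference of 0.70 ± 0.17 (adjusted p = 0.0445), and DY475382 had 0.57 in leaves against -0.07 in flowers, a difference of 0.64 ± 0.12 (adjusted p = 0.00949). DY475437 had 0.68 in leaves against 0.11 in flowers, a difference of 0.57 ± 0.13 (adjusted p = 0.027). The defensin CV793588, with 1.58 in leaves against 0.37 in flowers, missed the threshold at a difference of 1.20 ± 0.30 and an adjusted p of 0.0541.

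Another 3 members were called in the flower mean too, in the leaf direction, where 5 of 446 features were called (1.12%). S-adenosylmethionine decarboxylase averaged 0.84 in leaves against 1.16 in flowers, GRP 1.8 averaged 0.67 in leaves against 0.60 in flowers, and EB085017 averaged -1.11 in leaves against -0.78 in flowers. Their differences between tissues were -0.32 ± 0.27, 0.07 ± 0.18 and -0.33 ± 0.20, none of which passed. For the chloroplast features the leaf means were -0.70 and -0.64 for chlorophyll a/b binding proteins DY475489 and DY475454 and -0.37 for ferredoxin, against flower means of -0.33, -0.13 and 0.00, and these 3 differences did not pass either.

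**Figure D5:**
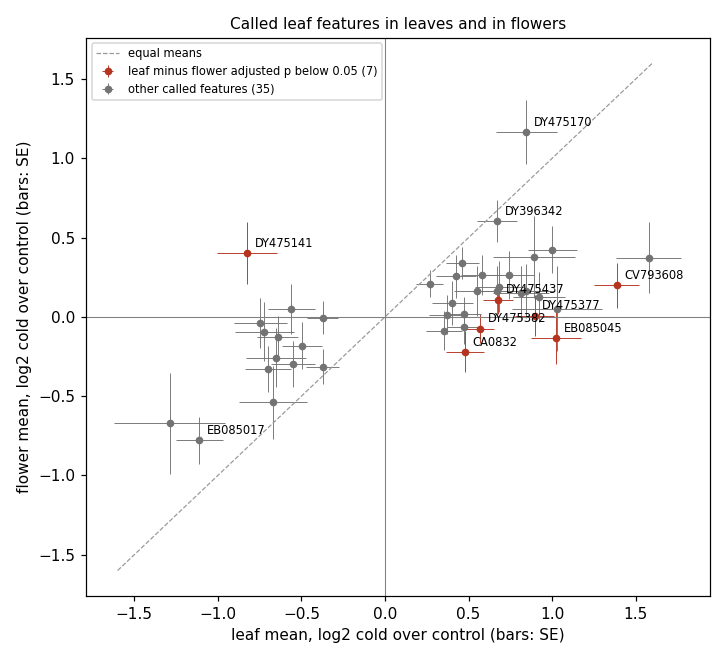
Mean log2 cold over control in leaves (horizontal axis) and in flowers (vertical axis) for the 42 called leaf features that had both, with bars of 1 standard error, the 7 whose difference passed in red and the diagonal of equal means dashed. Most induced features lie below the diagonal and most repressed ones above it, with CV793608 at 1.39 in leaves and 0.20 in flowers.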

How the data were processed

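The authors deposited 1 scanner file per channel and hybridisation, with the mean signal and mean background intensity of each spot in ImaGene's output per the file headers, and a table of log2 ratios averaged over replicates, normalised by the authors in a way whose centring is unknown (leaf column medians -0.20 to -0.12). The scanner intensities were used here and the deposited log2 table served as an alternative. Replicate number and dye came from the names of the deposited files, and 22 of 24 hybridisations were distinct, since replicate 3 of Tolerant2 flowers and of Susceptible2 flowers repeated replicate 1.

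In limma 3.58.1 (R 4.3.3), background was corrected by normexp with an offset of 50 and each hybridisation was normalised by loess (span 0.3, 4 iterations). Spots flagged in either channel, controls and empty spots were left out, swapped hybridisations were turned, and a feature's spots were averaged. All 22 hybridisations were fitted with lmFit and eBayes as 8 groups, and the contrast was the mean of the 4 leaf groups. p-values were two-sided and adjusted by Benjamini-Hochberg. The number of hybridisations limits the precision.

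Members and lists were chosen with earlier results of these data known. Named features were the 15 induced and 13 repressed with the largest mean among those of 1 sign in all 4 genotypes, the others of their description, the dehydrin and actin. Other features, including the 15 called outside this rule, were named after their values were seen. Alternatives are listed in the closing section. Descriptions came from the study's feature list, joined by print position, no genome was used, and no coordinates are given.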

Additional observations from a re-analysis of the deposited data

Results flagged for a closer look

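For 7 features the response of leaves differed from that of flowers by the limma test of the difference itself, adjusted over 406 features (1.72% called). Of these, 6 were induced in leaves. The SNAKIN2 precursor CV793608 averaged 1.39 in leaves against 0.20 in flowers and differed by 1.19 ± 0.20 (adjusted p = 0.00519), and 11 of 11 leaf values and 7 of 10 flower values were above 0. EB085045, of unclear function, averaged 1.02 in leaves against -0.13 in flowers and differed by 1.16 ± 0.22 (adjusted p = 0.00949), with 11 of 12 leaf values and 4 of 10 flower values above 0. DY475377, of unknown function, averaged 0.89 in leaves against 0.01 in flowers and differed by 0.89 ± 0.18 (adjusted p = 0.00949), and all 12 leaf values and 8 of 10 flower values were above 0.

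CA0832, DY475382 and DY475437, also of unknown function, differed by 0.70, 0.64 and 0.57. Beta-galactosidase DY475141 was the only one of the 7 lower in leaves, at -0.82 in leaves against 0.40 in flowers, with a difference of -1.22 ± 0.26 (adjusted p = 0.027), with 2 of 10 leaf values and 6 of 8 flower values above 0. The leaf values of Susceptible2 for this feature, 1.06, 0.05 and -0.60, included the only positive ones. In the fit with the replicate number as a random block 0 of the 7 differences passed, and without single leaf hybridisations 2 to 9 features passed.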

How the results depend on the processing

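The count of 43 called features was 29 to 54 under the alternatives that follow. It was 42 under plain background subtraction, 38 with median centring and 39 with loess per sub-array. Of these, 42, 37 and 39 were among the 43. With flagged spots kept it was 49 of 731 tested, and 33 of the 49 were among the 43. The median of spots gave 38, all among the 43, and other filters gave 43 to 47, which included all 43. Leaf groups only gave 42 (38 among the 43) and a dye term 54 (40 among the 43). Array weights gave 48 (all 43 included) and an exact sign-flip permutation test 37 (31 among the 43). Swapped hybridisations only, chosen after seeing the data, gave 50, of which 15 were among the 43. It was 29 without Tolerant2 (27 among the 43) and 36 without Susceptible2 (33 among the 43). It was 25 without Tolerant1, 24 without Susceptible1, 13 with a value required on every leaf hybridisation (137 tested), 20 in quantification period 2, 6 in period 3 and 8 with period as a random block (7 induced, 1 repressed). The methods' t-test gave 22 unadjusted and 22 after Benjamini-Hochberg, of the 36 features whose 95% confidence interval reached 2-fold, the methods' own rule of size applied before the test. With cold in Cy5 only, an alternative chosen after seeing the data, it was 1. Leaving out 1 leaf hybridisation gave 4 to 44, the lowest without replicate 2 of Tolerant1 (4), with 9 without its replicate 3, 17 without replicate 2 and 23 without replicate 3 of Susceptible1, since too few features then had the values required. With 1 value per group required, chosen after seeing the data, it was 30 to 43.

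Same-numbered leaf hybridisations of Tolerant1 and Susceptible1 deviated together from their group means (r = 0.38, 0.48 and 0.48), as did those of Tolerant2 and Susceptible2 for 2 of 3 numbers (r = 0.50, 0.80 and -0.09), and 10 of 12 hybridisations correlated best with their own number, a hint from the data and not the design. The loss under the block was uneven between directions. With the replicate number as a random block 27 of the 43 were called, 21 induced and 6 repressed, and the 9 repressed features that lost the call were CA0761, DY475055, DY475487, DY475070, DY475299, DY475330, DY475176, DY475141 and DY475408, with CA0036, EB085037, EB085026, CV793593, DY475237, CA0730 and DY475098 among the induced. It was 28 with the block and a dye term (22 induced, 6 repressed) and 9 with block means (8 induced, 1 repressed). CV793588, CV793608, EB085045, EB085040, DY475377, DY475437 and EB085017 were called in each of 13 of these fits (normalisation, filters on spots, dye, weights, blocks and the permutation test), and without any single hybridisation where 1 value per group was required. Under the filter of 2 values not all of them were tested in each omission.

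For the leaf minus flower difference, 0 features passed with the replicate block and 5 with median centring, of which 4 were among the 7. A dye term left 6 and plain subtraction 7, all of them among the 7. Without 1 leaf hybridisation 2 to 9 features passed, with 2 and 3 without replicates 2 and 3 of Tolerant1. The 9 without replicate 3 of Tolerant2 included all 7. Differences between genotypes stayed at 0 calls in each fit run. The median of the chlorophyll a/b binding proteins, -0.10, was -0.36 in period 2 alone and -0.19 to -0.03 without 1 hybridisation. That of the small cysteine-rich peptides, -0.03, lay between -0.18 and 1.47 without 1 hybridisation, where fewer members were tested. No call changed direction. In the table of log2 ratios deposited by the authors, 42 members of 42 had the same sign as here.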
